A study of Rattus norvegicus with 12 samples.

Results

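The collagen chain genes were examined in rat vascular smooth muscle cells (RVSMCs) given angiotensin II (AngII) with or without knockdown of *Alivec*, an AngII-induced long non-coding RNA. A probe set was taken as a collagen chain when its gene symbol was Col, digits, the letter a and digits, with nothing else. Of 23188 probe sets on the array, 15049 carried a gene symbol and 20 of these fitted the rule. Testing asked for a log2 signal of 6 or more on 3 or more arrays, which 18 of the 20 met, and all 18 in fact reached 6 on all 12 arrays. The other two, *Col4a4* (4.26 to 4.82) and *Col13a1* (5.20 to 5.83), reached 6 on no array and were not tested. The RefSeq gene table of the rat assembly GRCr8 lists 44 protein-coding collagen chain genes, of which 24, among them *Col4a2*, *Col5a2*, *Col6a1*, *Col6a3*, *Col9a3*, *Col10a1* and *Col12a1*, were not analysed here.

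The cells were released with enzymes from the thoracic aorta of male Sprague-Dawley rats aged 12 weeks, once the endothelium had been stripped off. They were transfected for 48 h with 100 nM of a negative control GapmeR (NCGap) or of a GapmeR against *Alivec* (*Alivec*Gap), an antisense oligonucleotide that directs RNase H to its target, and then given PBS or 100 nM AngII for 3 h. Each of the 4 combinations of GapmeR (NCGap, *Alivec*Gap) and treatment (PBS, AngII) had 3 arrays. All 4 groups were thus transfected, cultured cells, serum was withdrawn before AngII, and the knockdown rested on 1 GapmeR sequence. The labels call the arrays biological replicates without saying whether they are separate cell isolates, so p values cover no more than the spread among the arrays, which may be technical.

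Array medians lay between 6.68 and 6.76 and arrays of the same group correlated at 0.988 to 0.994 over the tested probe sets. *Alivec* has no named probe set, so the knockdown could not be checked on these arrays. All 10 smooth muscle markers were tested, and their mean was 10.76 to 11.01 on the 12 arrays. Of 10 endothelial markers, 7 stayed under 6 on every array, with *Pecam1*, *Cdh5* and *Vwf* among them (list mean 5.26 to 5.50), and of 9 leukocyte markers, 5 did, with *Ptprc* among them (list mean 5.06 to 5.45). The endothelial markers *Esam* (7.18 to 7.53) and *Cldn5* (6.09 to 6.74) were above 6 on every array. So were the leukocyte markers *Cd68* (6.81 to 7.28) and *Cd52* (6.15 to 6.66), and *Tyrobp* (5.72 to 6.68) and *Cd14* (5.36 to 6.56) also met the filter. One array stood apart for the collagen chains: replicate 3 of NCGap with PBS had the lowest value of its group for 12 of the 18 chains, against 29.1% of all tested probe sets. Values without it are given beside the chains it moved most.

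Collagens are secreted proteins whose alpha chains wind around one another into a rope-like helix of repeated glycine-containing triplets. Fibrillar chains form the cross-banded fibrils that bear tension in the arterial wall, basement membrane chains form the sheet that surrounds each smooth muscle cell, and the FACIT chains (fibril-associated collagens with interrupted helices) lie on the surface of fibrils. Chains of types II, IX and XI build the fibrils of cartilage and are known from vascular smooth muscle cells that take on features of cartilage cells. Whether AngII or the loss of *Alivec* moves these classes was the question of the comparisons. Levels are log2 signals, which differ between probe sets for reasons other than abundance, so each chain was compared only with itself.

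AngII lowered *Col3a1*, and few other collagen chains passed the test. With NCGap, 1 of 18 chains rose and 2 fell at an adjusted p under 0.05 (16.7%), where 31.2% of all 14796 tested probe sets were called (13.3% higher and 17.9% lower). With *Alivec*Gap, none rose and 2 fell (11.1%), where 26.3% of all tested probe sets were called (10.8% higher and 15.6% lower). The share of chains called was thus lower than the share of all probe sets in both comparisons, a description with no test. The differences of the 18 chains ran from -0.48 to 0.33 log2 units with NCGap (median -0.07, all probe sets -0.05) and from -0.52 to 0.23 with *Alivec*Gap (median -0.01, all probe sets -0.04). The last median changed sign to 0.04 when each array was centred on its median and to 0.03 after a further quantile normalization.

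**Figure D1:**
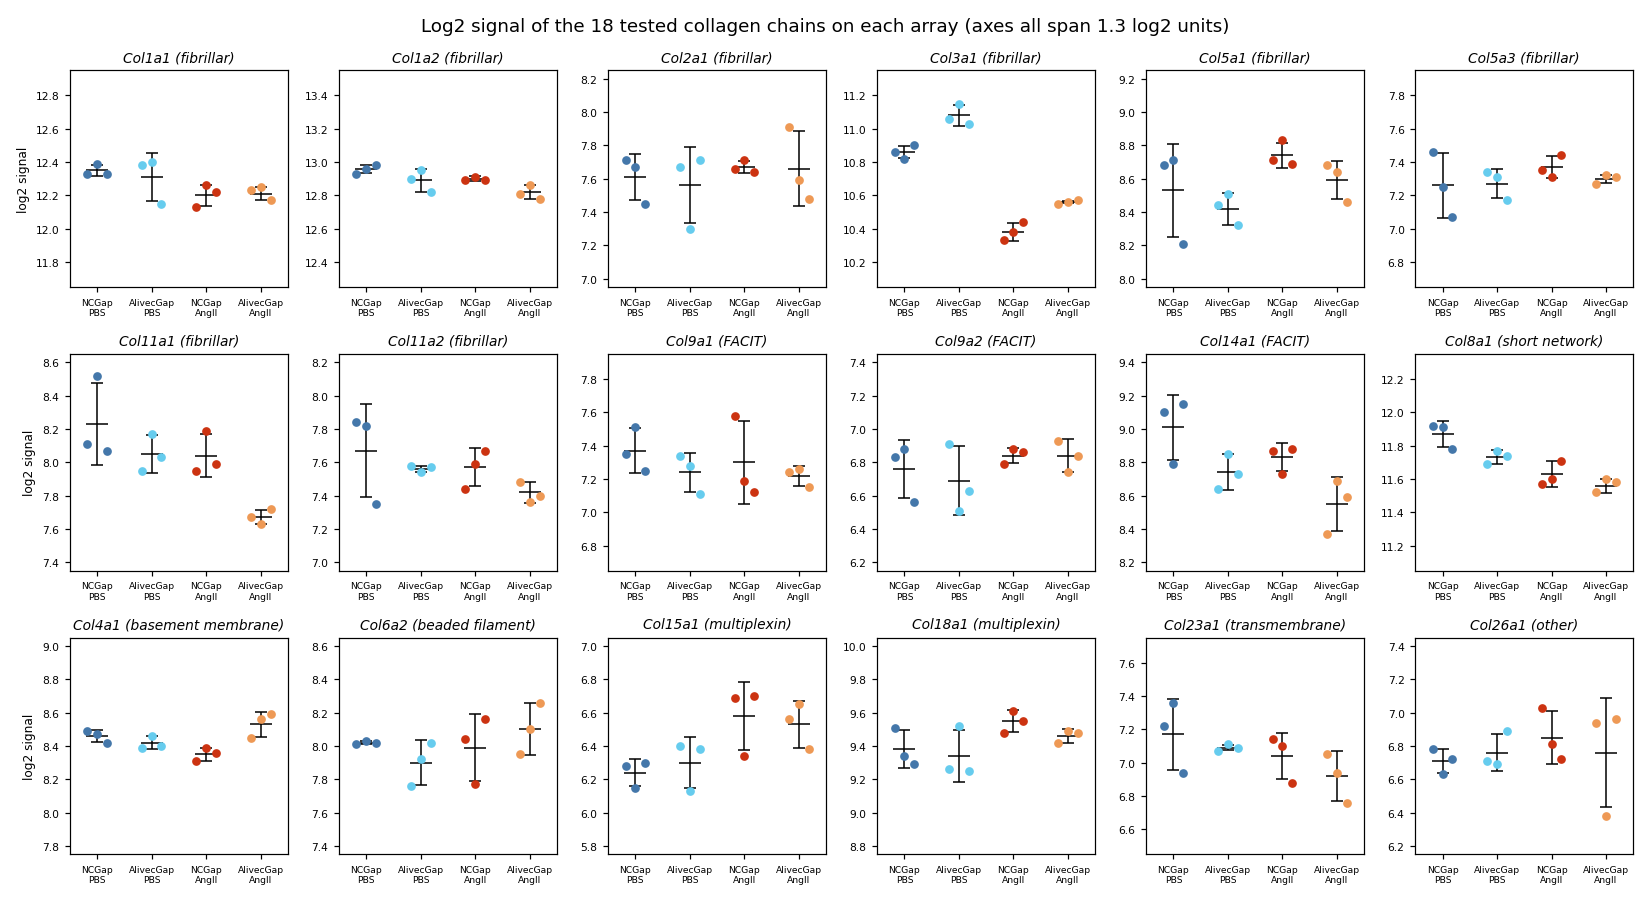
Log2 signal (vertical axes, each spanning the same range) of the 18 tested collagen chains on each of the 12 arrays, with the group mean (long bar) and SD (short bars, n = 3). The *Col3a1* arrays form 4 separate groups, with both AngII groups (10.33 to 10.57) below both PBS groups (10.82 to 11.15).

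*Col3a1* encodes the chain of type III collagen, which forms thin fibrils alongside type I collagen in elastic arteries. Its log2 signal with NCGap was 10.86, 10.82 and 10.90 on the PBS arrays and 10.33, 10.38 and 10.44 on the AngII arrays. With *Alivec*Gap it was 11.06, 11.15 and 11.03 with PBS and 10.55, 10.56 and 10.57 with AngII. All AngII arrays lay below all PBS arrays, whichever GapmeR was used. AngII lowered *Col3a1* by 0.48 log2 units with NCGap (fold 0.719, SE 0.061, adjusted p = 9.26e-05) and by 0.52 with *Alivec*Gap (fold 0.697, SE 0.061, adjusted p = 6.07e-05). Both calls held under every alternative setting and without any one array, with adjusted p values of at most 0.00281 and 0.000893. The responses with the GapmeRs differed by -0.05 log2 units (95% interval -0.23 to 0.14, adjusted p = 0.988 for the interaction).

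The type I and type V fibrillar chains did not pass the test in the fit used throughout. *Col1a1*, a chain of type I collagen, had 12.33, 12.39 and 12.33 with NCGap and PBS and 12.13, 12.26 and 12.22 with NCGap and AngII, a difference of -0.15 log2 units (95% interval -0.31 to 0.02, adjusted p = 0.169) between groups that did not overlap. With a trend in the prior of the fit, the *Col1a1* difference passed the test (adjusted p = 0.0272). Its partner *Col1a2* had 12.93, 12.96 and 12.98 with PBS and 12.89, 12.91 and 12.89 with AngII (difference -0.06, 95% interval -0.19 to 0.07, adjusted p = 0.482). With *Alivec*Gap the differences were -0.10 for *Col1a1* and -0.07 for *Col1a2*, and the groups overlapped for both. Within the fibrillar class, the type I intervals with NCGap ended at or above -0.31, and that of *Col3a1* ran from -0.61 to -0.34. *Col5a1* and *Col5a3*, chains of type V collagen, which starts fibril assembly, differed by 0.21 and 0.11 with NCGap and by 0.17 and 0.03 with *Alivec*Gap, with overlapping groups and adjusted p values of 0.212 and 0.411, and of 0.343 and 0.842. Without replicate 3 of NCGap with PBS, the differences with NCGap were 0.05 for *Col5a1* and 0.01 for *Col5a3*.

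Adventitial fibroblasts also make type III collagen, so their markers were counted beside *Col3a1*. Of 12 fibroblast markers, 10 had a probe set, 8 were tested and *Cd34* stayed under 6 on every array. The mean of the 10 was 7.70 to 7.72 with NCGap and PBS and 7.45 to 7.61 with NCGap and AngII, and it was 7.75 to 7.80 and 7.63 to 7.71 with *Alivec*Gap. With NCGap all 8 differences were below 0, where 8688 of the 14796 tested probe sets were. AngII lowered 2 of the 8 (25.0%, where 17.9% of all tested probe sets were called lower), *Pdgfra*, a growth factor receptor (-0.58, adjusted p = 0.00234), and *Lum*, the fibril-binding proteoglycan lumican (-0.35, adjusted p = 0.00617). The same pair fell with *Alivec*Gap, by 0.47 and 0.29 (adjusted p = 0.0105 and 0.0191). This was again 25.0%, where 15.6% of all tested probe sets were called lower. With *Alivec*Gap 4 of the 8 differences were below 0, where 8471 of the 14796 tested probe sets were. Of the 10 smooth muscle markers, *Myh11*, *Lmod1* and *Smtn* fell and *Myocd* rose with each GapmeR. That is 40.0% called each time, where 31.2% of all tested probe sets were called with NCGap and 26.3% with *Alivec*Gap. In such bulk samples, fewer cells of a type and less RNA per cell cannot be told apart, and the part of these markers in the *Col3a1* result was not tested.

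*Col8a1* and *Col15a1* were the other chains called with NCGap. *Col8a1* encodes a chain of the short network collagen type VIII, which smooth muscle cells deposit during remodelling of the vessel wall. It had 11.92, 11.91 and 11.78 on the PBS arrays and 11.57, 11.60 and 11.71 on the AngII arrays with NCGap, 2 groups that did not overlap, and fell by 0.24 log2 units (fold 0.847, SE 0.0667, adjusted p = 0.0162). With *Alivec*Gap it had 11.69, 11.77 and 11.74 with PBS and 11.52, 11.60 and 11.58 with AngII, again without overlap (difference -0.17, SE 0.0667, adjusted p = 0.0873). This difference passed the test with no moderation of the spread (adjusted p = 0.0448) and with a trend in the prior (0.00963). The responses differed by 0.07 (95% interval -0.13 to 0.28, adjusted p = 0.988). The *Col8a1* call with NCGap was lost when only the 2 groups compared were fitted (adjusted p = 0.0635) and without replicate 1 of NCGap with PBS (0.0611) or replicate 1 (0.0627) or 2 (0.057) of NCGap with AngII.

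*Col15a1* encodes type XV collagen, a multiplexin that links basement membranes to the fibrils around them. Its log2 signal was low, near the limit of 6, with 6.28, 6.15 and 6.30 for NCGap with PBS and 6.69, 6.34 and 6.70 for NCGap with AngII. The groups did not overlap, replicate 2 was the lowest in both, and the chain rose by 0.33 log2 units (fold 1.26, SE 0.113, adjusted p = 0.0412). With *Alivec*Gap it had 6.40, 6.13 and 6.38 with PBS and 6.56, 6.65 and 6.38 with AngII, groups that overlapped (difference 0.23, adjusted p = 0.164), and the responses differed by -0.10 (95% interval -0.45 to 0.24, adjusted p = 0.988). The *Col15a1* call was lost under 4 of 8 other settings and without any one of 7 of the 12 arrays, with adjusted p values of 0.0502 to 0.138 where it was lost. *Col18a1*, the other multiplexin and the source of endostatin, differed by 0.17 with NCGap and 0.12 with *Alivec*Gap (adjusted p = 0.167 and 0.349).

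The basement membrane class rested on *Col4a1* alone, the chain that joins the product of its neighbour *Col4a2* in the network of type IV collagen. It had 8.49, 8.47 and 8.42 with NCGap and PBS against 8.31, 8.39 and 8.36 with NCGap and AngII (difference -0.11, adjusted p = 0.223), which did not overlap. With *Alivec*Gap it had 8.39, 8.46 and 8.40 with PBS and 8.45, 8.56 and 8.59 with AngII (difference 0.11, adjusted p = 0.213), which overlapped. It lay lower with AngII on the NCGap arrays and higher on most *Alivec*Gap arrays, and the interaction was 0.22 log2 units (95% interval 0.03 to 0.41, unadjusted p = 0.0276, adjusted p = 0.898). *Col4a1* was the 1 chain of 18 with an unadjusted p under 0.05 for the interaction, where 5.5% of all tested probe sets had one and no probe set passed the adjustment by limma.

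The cartilage chains *Col2a1*, *Col9a1*, *Col9a2*, *Col11a1* and *Col11a2* gave no call of a rise with AngII. *Col2a1*, the chain of the main cartilage collagen, had 7.71, 7.67 and 7.45 with NCGap and PBS and 7.66, 7.71 and 7.64 with NCGap and AngII, and the groups overlapped (difference 0.06, 95% interval -0.21 to 0.34, adjusted p = 0.756). With *Alivec*Gap the difference was 0.10 (95% interval -0.18 to 0.38, adjusted p = 0.631). *Col9a1* and *Col9a2*, chains of the type IX collagen that coats cartilage fibrils, differed by -0.07 (95% interval -0.33 to 0.18) and 0.09 (-0.15 to 0.33) with NCGap, and by -0.02 (-0.28 to 0.23) and 0.15 (-0.09 to 0.39) with *Alivec*Gap. *Col9a1* ran from 7.11 to 7.58 and *Col9a2* from 6.51 to 6.93 over the 12 arrays, with overlap between the groups in every comparison. For *Col2a1*, *Col9a1* and *Col9a2* the intervals thus left room for a rise of at most 0.39 log2 units. Without replicate 3 of NCGap with PBS, the differences with NCGap were -0.02 for *Col2a1*, -0.13 for *Col9a1* and -0.01 for *Col9a2*. The gene of aggrecan, *Acan*, a cartilage proteoglycan that is no collagen, had 7.74, 7.46 and 7.81 with PBS and 9.82, 9.77 and 9.79 with AngII on the NCGap arrays, an AngII rise of 2.12 log2 units (adjusted p = 9.39e-09). The 3 other tested chondrocyte markers, *Comp*, *Prg4* and *Sox5*, differed by 0.07, 0.07 and -0.12 with NCGap and none passed the test. Of 10 such markers 8 had a probe set, *Sox9* and *Matn3* had none, and 4 were tested. After knockdown with AngII, *Acan* was lower without overlap (-0.27, fold 0.828, unadjusted p = 0.0131 and adjusted p = 0.259 by limma). In that comparison *Comp*, *Prg4* and *Sox5* differed by -0.02, -0.09 and 0.14. With PBS the knockdown difference of *Acan* was -0.03.

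All AngII differences of the type XI chains, which set the width of cartilage fibrils, were below 0, and 1 passed the test. *Col11a1* had 8.11, 8.52 and 8.07 with NCGap and PBS and 7.95, 8.19 and 7.99 with NCGap and AngII, groups that overlapped (difference -0.19, adjusted p = 0.235). Without replicate 2 of NCGap with PBS, the highest of the 12 arrays, this difference was -0.05. With *Alivec*Gap it had 7.95, 8.17 and 8.03 with PBS and 7.67, 7.63 and 7.72 with AngII, and fell by 0.37 log2 units (fold 0.772, SE 0.114, adjusted p = 0.0298). The *Alivec*Gap arrays with AngII were the lowest of the 12, below every other array. The responses differed by -0.18 (95% interval -0.53 to 0.17, adjusted p = 0.963). The *Col11a1* call was lost under 4 of 8 other settings and without any one of 5 arrays of those 2 groups, with adjusted p values of 0.0524 to 0.114 where it was lost.

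*Col11a2* had 7.84, 7.82 and 7.35 with NCGap and PBS, where replicate 3 was the lowest of all 12 arrays, and 7.44, 7.59 and 7.67 with NCGap and AngII (difference -0.11, 95% interval -0.36 to 0.14, adjusted p = 0.526). Without that replicate the difference was -0.27 (adjusted p = 0.0243). The count of chains called with NCGap stayed at 3 without it, with *Col11a2* called in place of *Col15a1* (adjusted p = 0.0573). With *Alivec*Gap the *Col11a2* difference was -0.15 (adjusted p = 0.393), although the groups did not overlap.

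The remaining chains passed no test after AngII with all arrays. *Col14a1*, a FACIT chain that binds fibril surfaces, differed by -0.19 with either GapmeR (adjusted p = 0.223 and 0.232). Without replicate 2 of NCGap with PBS the *Col14a1* difference with NCGap was -0.30 and passed the test (adjusted p = 0.0476), and without replicate 3 it was -0.12. *Col6a2*, a chain of the beaded filaments around cells, differed by -0.03 and 0.20 with NCGap and *Alivec*Gap, the membrane-spanning *Col23a1* by -0.14 and -0.17, and *Col26a1* by 0.14 and 0.00. The *Col23a1* difference with NCGap was -0.25 without replicate 3 of NCGap with PBS (adjusted p = 0.0893). Counting all 18 chains, 1 was higher and 5 were lower without overlap between the NCGap groups, where 17% and 25.2% of all tested probe sets were. Between the *Alivec*Gap groups none was higher and 5 were lower without overlap, where 16.9% and 26.6% of all tested probe sets were. *Col3a1* and *Col8a1* were in both counts, and comparisons with different GapmeRs share no array.

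**Figure D2:**
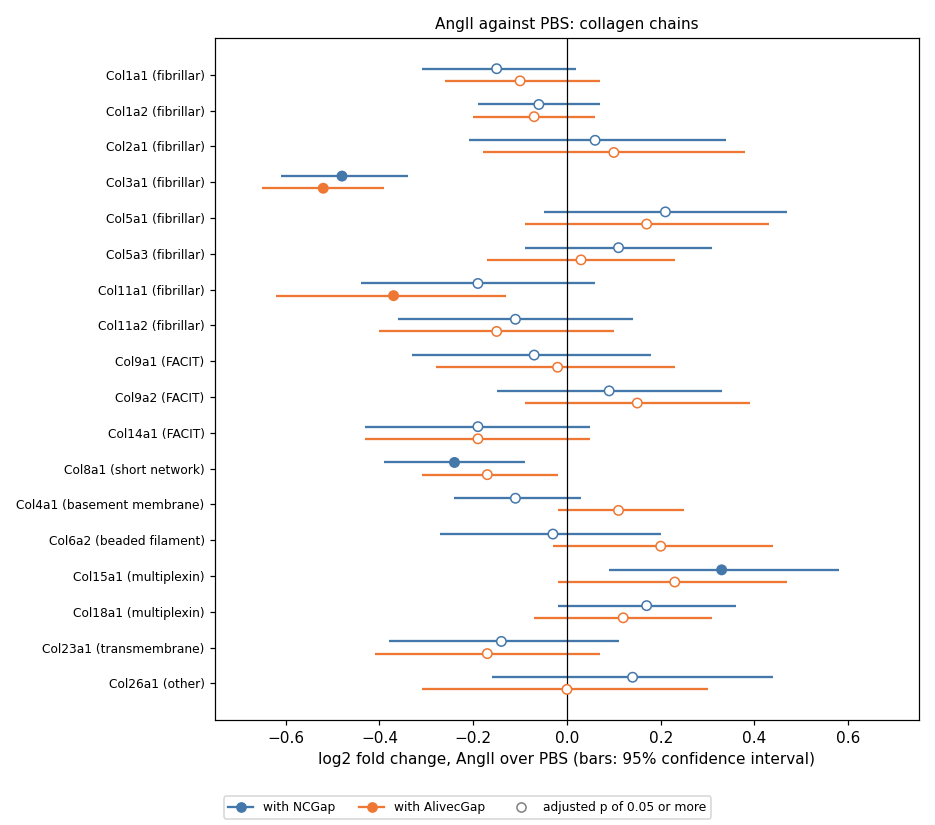
Log2 fold change of AngII over PBS (horizontal axis, with 95% confidence intervals as bars) for the 18 tested collagen chains, with NCGap in blue and *Alivec*Gap in orange. Filled points passed an adjusted p of 0.05, and only *Col3a1* (-0.48 and -0.52) is filled with both GapmeRs.

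The promoters of the called chains *Col8a1*, *Col15a1* and *Col11a1* are shown as a description. The call of each was lost under some other settings, and whether motifs go with the direction was not tested. RefSeq sequences of GRCr8, which run across the annotated start of transcription, matched 15 of the 20 chains. *Col3a1* was not among the 15, so its promoter is not shown. Each is 300 bases long, lies at chr11:56246532-56246831 for *Col8a1*, chr5:66297296-66297595 for *Col15a1* and chr2:204508886-204509185 for *Col11a1*, on the plus strand each time, and is written 5′ to 3′ with motif matches in capitals.
Col8a1: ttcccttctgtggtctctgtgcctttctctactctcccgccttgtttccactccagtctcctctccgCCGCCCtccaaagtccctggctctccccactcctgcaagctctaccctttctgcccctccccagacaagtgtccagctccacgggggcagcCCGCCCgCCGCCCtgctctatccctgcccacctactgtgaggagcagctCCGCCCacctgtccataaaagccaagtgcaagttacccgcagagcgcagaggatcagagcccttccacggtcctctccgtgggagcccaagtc
Col15a1: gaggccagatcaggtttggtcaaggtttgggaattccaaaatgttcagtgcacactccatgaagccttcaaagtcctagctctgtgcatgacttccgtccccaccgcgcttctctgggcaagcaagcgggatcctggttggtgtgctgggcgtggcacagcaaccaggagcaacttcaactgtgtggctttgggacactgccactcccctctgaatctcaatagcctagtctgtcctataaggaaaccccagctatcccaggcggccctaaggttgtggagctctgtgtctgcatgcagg
Col11a1: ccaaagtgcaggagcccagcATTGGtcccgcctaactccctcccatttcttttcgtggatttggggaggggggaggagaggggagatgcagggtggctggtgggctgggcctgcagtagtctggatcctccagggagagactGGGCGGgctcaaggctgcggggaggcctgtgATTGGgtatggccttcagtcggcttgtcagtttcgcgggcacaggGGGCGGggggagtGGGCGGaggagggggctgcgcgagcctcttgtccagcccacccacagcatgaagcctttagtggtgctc
The motifs searched on both strands, none of which overlapped another in these sequences, were the TATA box (TATAAA), the CCAAT box (CCAAT), the GC box (GGGCGG) and the AP-1 site (TGANTCA). *Col8a1*, which fell with NCGap, holds 4 GC boxes, all on the reverse strand, at positions -183, -92, -85 and -43 from the start. *Col11a1*, which fell with *Alivec*Gap, holds 3 GC boxes and 2 CCAAT boxes. *Col15a1*, which rose with NCGap, holds none of these motifs, and its GC content was 55.0% against 62.7% for *Col8a1* and 64.7% for *Col11a1*. Over the 15 collagen promoters, 8 hold a GC box (33.1% of all 33469 promoters do), 4 a CCAAT box (37.5%), 2 a TATA box (14.2%) and none an AP-1 site (7.33%). A match of letters is a description and not a binding site, and no match says only that these letters are not in this window.

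Knockdown of *Alivec* moved no collagen chain past an adjusted p of 0.05, and the values that stood out went both ways. With PBS, none of the 18 chains was called by limma at an adjusted p under 0.05 (all probe sets 0.399%), and 2 had an unadjusted p under 0.05 (all probe sets 9.64%). With AngII, none was called (all probe sets 0.818%), and 4 had an unadjusted p under 0.05 (all probe sets 11.6%). The study itself used cut-offs of 1.2-fold and an unadjusted p of 0.05. At these study thresholds 1 chain was lower with PBS (5.56%, all probe sets 2.69%) and 2 were lower with AngII (11.1%, all probe sets 3.24%). No chain was higher at these thresholds, and the calls of this kind had adjusted p values of 0.204 to 0.418.

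*Col3a1* had the smallest p of the chains with PBS, where the *Alivec*Gap arrays (11.06, 11.15 and 11.03) all lay above the NCGap arrays (10.86, 10.82 and 10.90). The difference was 0.22 log2 units (fold 1.17, 95% interval 0.09 to 0.35, unadjusted p = 0.0034, adjusted p = 0.182). With AngII the arrays were again separate, at 10.55 to 10.57 against 10.33 to 10.44 (difference 0.18, fold 1.13, 95% interval 0.04 to 0.31, adjusted p = 0.261). The differences were positive under both conditions and under the fold required by the study. With a trend in the prior of the fit, the difference with PBS passed the test (adjusted p = 0.0279). Of the 8 fibroblast markers, *Dcn*, which encodes the proteoglycan decorin (0.58, adjusted p = 0.0283), and *Mfap5*, a microfibril protein (0.49, adjusted p = 0.0461), were higher after knockdown with AngII. That is 25.0% called, where 0.818% of all tested probe sets were called. With PBS *Dcn* and *Mfap5* differed by 0.50 and 0.33 (adjusted p = 0.0788 and 0.241). *Cygb*, the gene of cytoglobin, went the other way (-0.46 with PBS, adjusted p = 0.175, and -0.15 with AngII). In all, 4 of the 8 markers were below 0 with PBS and 2 with AngII, where 7248 and 7236 of the 14796 tested probe sets were. Their part in the *Col3a1* values was not tested.

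*Col14a1* was lower at the study thresholds under both conditions. With PBS it had 9.10, 8.79 and 9.15 with NCGap and 8.64, 8.85 and 8.73 with *Alivec*Gap, groups that overlapped through replicate 2 of each (difference -0.27, fold 0.827, 95% interval -0.51 to -0.04, adjusted p = 0.418). With AngII it had 8.87, 8.73 and 8.88 against 8.37, 8.69 and 8.59, without overlap (difference -0.28, fold 0.824, 95% interval -0.52 to -0.04, adjusted p = 0.34). The size was alike under both conditions (interaction 0.00, 95% interval -0.34 to 0.33).

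*Col11a1* was lower at the study thresholds with AngII, where NCGap arrays had 7.95, 8.19 and 7.99 and *Alivec*Gap arrays 7.67, 7.63 and 7.72 (difference -0.37, fold 0.775, 95% interval -0.62 to -0.12, adjusted p = 0.204). With PBS the difference was -0.19 (95% interval -0.43 to 0.06, adjusted p = 0.663) and the groups overlapped. It was -0.04 without replicate 2 of NCGap with PBS and -0.27 without replicate 3 of that group. This result and the AngII response of *Col11a1* with *Alivec*Gap share the same 3 low arrays and are not independent. The knockdown differences of *Col2a1*, *Col9a1*, *Col9a2* and *Col11a2* with AngII were -0.02 (95% interval -0.29 to 0.26), -0.08 (-0.33 to 0.17), -0.01 (-0.25 to 0.23) and -0.15 (-0.40 to 0.10), with overlapping groups. With PBS they were -0.05, -0.13, -0.07 and -0.11, with adjusted p values of 0.788 to 0.936, and without replicate 3 of NCGap with PBS they were -0.13, -0.19, -0.17 and -0.27.

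*Col4a1* differed by 0.18 after knockdown with AngII (95% interval 0.04 to 0.32, adjusted p = 0.261), with the *Alivec*Gap arrays all higher, and by -0.04 with PBS (adjusted p = 0.887). The other chains, *Col5a1*, *Col5a3*, *Col6a2*, *Col8a1*, *Col15a1*, *Col18a1*, *Col23a1* and *Col26a1*, differed by -0.15 to 0.11 log2 units over both comparisons (adjusted p values from 0.541 to 0.98). *Col1a1* and *Col1a2* differed by at most 0.08 log2 units in size in either comparison. Over all chains, 14 of 18 differences were below 0 with PBS and 14 of 18 with AngII (medians -0.07 and -0.07), where 7248 and 7236 of the 14796 tested probe sets were below 0. This count was 13 to 15 with PBS and 12 to 15 with AngII under the other settings and with single arrays left out. The 10 smooth muscle markers leaned the same way, with 9 below 0 with PBS and 8 with AngII. None of the 10 was called at an adjusted p under 0.05 or at the study thresholds. In each comparison 3 of 10 had an unadjusted p under 0.05 (all tested probe sets 9.64% with PBS and 11.6% with AngII). Of these, *Cnn1* (calponin) was lower without overlap in both (-0.24 and -0.26, adjusted p = 0.164 and 0.0883), and passed the test with a trend in the prior (0.00733 and 0.00211). The part of these markers in the chain counts was not tested. Without replicate 3 of NCGap with PBS the count of chains below 0 was 15 with PBS, *Col23a1* moved from -0.08 to -0.20, and the chains lower at the study thresholds were then *Col5a1*, *Col11a1* and *Col11a2* (-0.27 each) in place of *Col14a1* (-0.21). Replicate 1 of NCGap with PBS, or replicate 1 or 3 of *Alivec*Gap with PBS, left no chain at these thresholds when it was left out. With AngII, 1 of the 2 chains remained without replicate 1 or 3 of NCGap with AngII or replicate 1 of *Alivec*Gap with AngII.

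**Figure D3:**
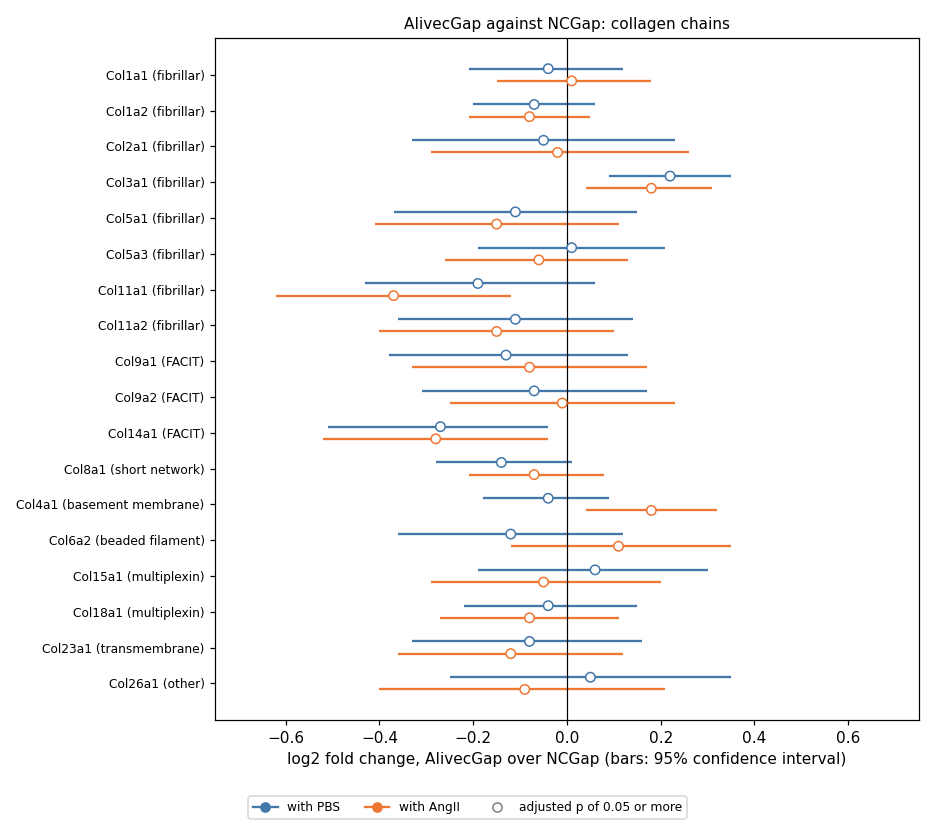
Log2 fold change of *Alivec*Gap over NCGap (horizontal axis, with 95% confidence intervals as bars) for the 18 tested collagen chains, with PBS in blue and AngII in orange. No point is filled, since none passed an adjusted p of 0.05, and the intervals of *Col3a1* and *Col14a1* lie on one side of 0 in both conditions.

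Genes that fold, join, bind and degrade collagen were counted from textbook lists. Of 18 tested genes of collagen folding and modification in the endoplasmic reticulum, none rose and 4 fell with AngII and NCGap: the lysyl hydroxylases *Plod1* (-0.19) and *Plod2* (-0.23), the prolyl hydroxylase *P3h3* (-0.30) and the peptidyl-prolyl isomerase *Fkbp10* (-0.19), with adjusted p values of 0.0274 to 0.0462. That is 22.2%, where 17.9% of all tested probe sets were called lower. *Serpinh1*, the collagen chaperone HSP47, differed by -0.12 (adjusted p = 0.217) and *P4hb*, a subunit of prolyl 4-hydroxylase, by -0.08 (adjusted p = 0.316), and each passed under 1 other setting (adjusted p = 0.0338 with a trend in the prior and 0.0391 with no moderation). With *Alivec*Gap 3 of 18 fell (16.7%, all tested probe sets 15.6%), *Sec23a*, a coat protein of the vesicles that carry procollagen (-0.36), *Plod2* (-0.27) and *Fkbp7* (-0.20). The folding calls with NCGap depended on the setting: none remained without a filter on low signal, with only the groups compared, without replicate 3 of NCGap with PBS or without replicate 1 of NCGap with AngII, and 2 remained with arrays centred.

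Genes of collagen processing and cross-linking held the largest AngII differences of the lists. Of 13 tested, 3 rose and 4 fell with NCGap (53.8%, all tested probe sets 31.2%), and 3 rose and 1 fell with *Alivec*Gap (30.8%, all tested probe sets 26.3%). *Loxl4*, a lysyl oxidase that cross-links collagen, had 7.87, 8.17 and 8.05 with NCGap and PBS and 9.75, 9.66 and 9.90 with NCGap and AngII, and all AngII arrays were far above the PBS arrays. It rose by 1.74 log2 units (fold 3.34, SE 0.145) with each GapmeR (adjusted p = 2.77e-06 and 3.52e-06). *Loxl2*, of the same family, rose by 0.45 and 0.29 (adjusted p = 0.00167 and 0.0269). *Lum* fell with each GapmeR, and *Fmod* (fibromodulin, -0.31), the procollagen protease *Bmp1* (-0.20) and its enhancer *Pcolce* (-0.22) fell with NCGap (adjusted p = 0.00824, 0.0306 and 0.0117). With *Alivec*Gap *Fmod* differed by -0.22 (adjusted p = 0.051) and *Pcolce* by -0.11 (adjusted p = 0.209). There *Fmod* passed with a trend in the prior (adjusted p = 0.021), and *Pcolce* with no moderation of the spread (0.0395).

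*Tll1*, a procollagen C-proteinase of the same family as *Bmp1*, moved with both AngII and knockdown. It had 8.35, 8.51 and 8.54 with NCGap and PBS, 8.06, 8.25 and 8.17 with *Alivec*Gap and PBS, 9.38, 9.29 and 9.20 with NCGap and AngII, and 8.69, 8.67 and 8.71 with *Alivec*Gap and AngII. The 4 groups did not overlap. AngII raised it by 0.82 log2 units with NCGap (fold 1.77, adjusted p = 6.77e-06) and by 0.53 with *Alivec*Gap (fold 1.44, adjusted p = 0.000324). Knockdown lowered it with AngII by 0.60 (fold 0.66, SE 0.0765, adjusted p = 0.00468), and with PBS the difference was -0.30 (adjusted p = 0.14). The *Tll1* calls held under every alternative setting and without any one array.

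Among 5 tested collagen receptor genes, the integrin subunit *Itgb1* rose with AngII by 0.39 and 0.24 with NCGap and *Alivec*Gap (adjusted p = 0.000698 and 0.017). Its collagen-binding partner *Itga1* fell by 0.33 and 0.40 (adjusted p = 0.00556 and 0.00212). That is 40.0% of the list called with each GapmeR, where 31.2% and 26.3% of all tested probe sets were called. *Itga1* was 11.43 to 11.46 with NCGap and AngII and 10.87 to 11.12 with *Alivec*Gap and AngII, a knockdown difference of -0.43 (adjusted p = 0.0265). That call was lost without a filter, with only the groups compared, and without any one of 5 arrays of these 2 groups (adjusted p = 0.0808 to 0.124). With PBS the *Itga1* difference was -0.36 (adjusted p = 0.0836). *Ddr1*, *Ddr2* and *Mrc2*, other receptors of collagen, passed no test after AngII.

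Of 9 tested genes of collagen degradation, *Timp1*, an inhibitor of matrix metalloproteinases, rose with AngII by 0.92 with NCGap and 0.51 with *Alivec*Gap (adjusted p = 0.000127 and 0.00869). The gelatinase gene *Mmp2* fell by 0.23 with NCGap (adjusted p = 0.0196) and differed by -0.15 with *Alivec*Gap (adjusted p = 0.126). With NCGap 22.2% of the list was called (all tested probe sets 31.2%), and with *Alivec*Gap 11.1% (all tested probe sets 26.3%). Of the lists, *Dcn* (0.50), *Ctsk* (cathepsin K, 0.41) and *Timp1* (0.30) were higher after knockdown with PBS at the study thresholds. *Tll1* and *Itga1* were lower at these thresholds, and none of these genes had an adjusted p under 0.05 (0.0788 to 0.436). That is 1 higher and 1 lower of 13 processing and cross-linking genes (15.4%) and 2 higher of 9 degradation genes (22.2%). Of 5 receptor genes 1 was lower, and of 18 folding genes none was called at these thresholds. Over all tested probe sets 4.93% were called in this way, a description with no test. With a trend in the prior *Dcn* (0.00319), *Ctsk* (0.0116) and *Itga1* (0.000487) passed, and *Ctsk* and *Dcn* also after a further quantile normalization (0.0293 and 0.045). With AngII, *Mmp16*, a membrane-bound metalloproteinase, was lower at the study thresholds (-0.27, adjusted p = 0.369), which is 11.1% of the degradation list (all tested probe sets 6.1%). *Dcn* rose after knockdown with AngII, a call that was lost under 3 of 8 other settings and without any one of 5 arrays (adjusted p = 0.0524 to 0.137). Other AngII calls were also lost without single arrays of the groups compared: with NCGap those of *Bmp1* (0.0514 to 0.125) and *Mmp2* (0.0642 to 0.0667), and with *Alivec*Gap those of *Loxl2* (0.0775 to 0.11), *Lum* (0.0504 to 0.0806), *Itgb1* (0.0546 to 0.0719), *Plod2* (0.0571 to 0.0639), *Sec23a* (0.0569 to 0.0602) and *Fkbp7* (0.0548 to 0.0997), where the values are adjusted p. Under the 8 other settings, the NCGap call of *Bmp1* was lost in 4, of *Mmp2* in 2 and of *Pcolce* in 1. With *Alivec*Gap, *Fkbp7* was lost in 3, *Loxl2* in 2, and *Lum* and *Plod2* in 1 each.

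**Figure D4:**
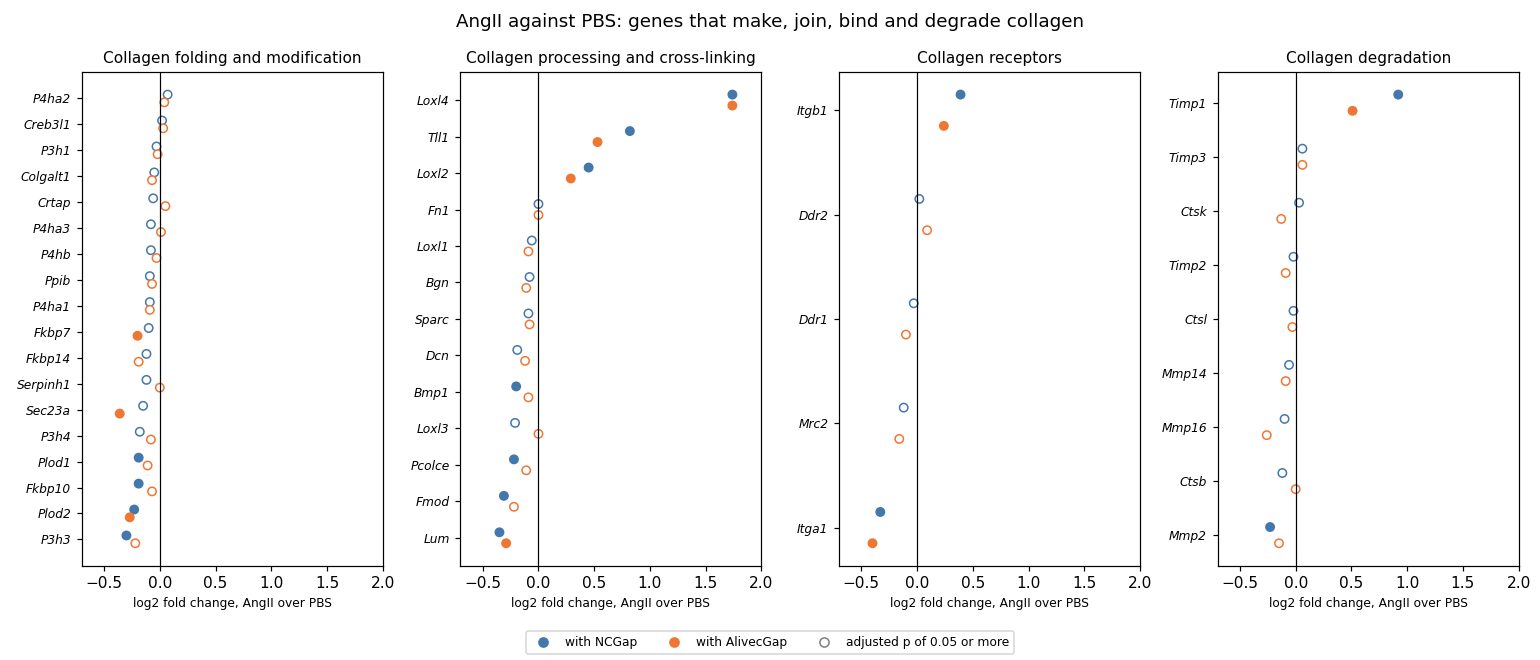
Log2 fold change of AngII over PBS (horizontal axes) for the tested genes that fold, process and cross-link, bind or degrade collagen, with NCGap in blue and *Alivec*Gap in orange and filled points where the adjusted p was under 0.05. *Loxl4* (1.74 with each GapmeR) lies farthest to the right, and the folding genes lie between -0.36 and 0.07.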

How the data were processed

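Clariom S rat arrays were hybridized with RNA from 12 RVSMC samples in 4 groups of 3. The deposited values are log2 signals, which the authors made from CEL files by Robust Multichip Average in Partek Genomics Suite. The build behind the probe sets is not stated in the sources used here. Robust Multichip Average sets arrays to a common distribution, so differences are relative to all probe sets.

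Probe sets with a signal of at least 6 on at least 3 arrays (14796) were fitted with limma 3.58.1 in R 4.3.3 (lmFit and eBayes, 4 group means, prior degrees of freedom 4.08), with Benjamini-Hochberg adjustment over all of them. The median SD within groups was 0.123, and 3 arrays a group limit the precision. The methods name an analysis of variance with terms not given in the sources used here, so the fit used the group means alone. Fits were tested on simulated data. The text names every chain, with full values for called and cartilage chains, and of each list the genes with the smallest p. The members and lists were chosen with earlier results of these data known. Alternatives covered the filter, scaling, prior, samples fitted, replicate block and single arrays left out. Those for the gene lists were added after seeing the data.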

Additional observations from a re-analysis of the deposited data

How the results depend on the processing

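The count of collagen chains called after AngII with NCGap, 3, was 1 when only the groups compared were fitted, 2 with no moderation of the spread and 2 without a filter on low signal (*Col15a1* lost each time), and 1 to 3 with single arrays left out (1 without replicate 1 of NCGap with PBS or of NCGap with AngII). With a trend in the prior it was 3 with *Col1a1* in place of *Col15a1*. With *Alivec*Gap, 2 became 3 with a trend in the prior (*Col8a1* added) and stayed 2 with no moderation, with *Col8a1* in place of *Col11a1*. It became 1 without a filter on low signal, after a further quantile normalization and with arrays centred on their median, and it was 1 to 2 with single arrays left out (1 without replicate 2 or 3 of *Alivec*Gap with PBS or any array of *Alivec*Gap with AngII). After knockdown with PBS, 0 became 1 (*Col3a1*) with a trend in the prior, and the count at the study thresholds, 1, was 0 to 3 with single arrays left out. After knockdown with AngII, the count at the study thresholds, 2, was 1 after a further quantile normalization and 1 to 2 with single arrays left out. The cause was not tested, except that fewer arrays or more probe sets enter where the setting says so.

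Signs of small differences changed. That of *Col9a1* after AngII with *Alivec*Gap was 0.03 after quantile normalization and 0.03 with centring, and that of *Col9a2* after knockdown with AngII was 0 with centring. With single arrays left out, *Col2a1* ran from -0.02 to 0.11 (AngII, NCGap), -0.03 to 0.19 (AngII, *Alivec*Gap), -0.13 to 0.08 (knockdown, PBS) and -0.14 to 0.07 (knockdown, AngII), *Col9a1* from -0.22 to 0.02 (AngII, NCGap), -0.09 to 0.02 (AngII, *Alivec*Gap) and -0.17 to 0.06 (knockdown, AngII), and *Col9a2* from -0.01 to 0.15 (AngII, NCGap), -0.18 to 0.02 (knockdown, PBS) and -0.06 to 0.04 (knockdown, AngII).

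Deviations from the group means correlated at -0.0938 to 0.323 (median 0.0939) over 18 pairs of arrays with the same replicate number. Over 36 pairs with different numbers they correlated at -0.338 to 0.272 (median -0.0614), so same-number pairs were higher at the median. Whether the numbers pair the samples is not given in the labels and was not tested, and the main fit left them out. With the number as a block, the calls of chains stayed at 3 and 2 after AngII and at 0 and 0 after knockdown. Centring turned the split of all probe sets called after AngII with *Alivec*Gap from 1591 higher and 2303 lower to 2008 and 1842. Signals near 6, such as those of *Col15a1*, lie near the lower limit of the filter.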

Other observations

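In the gene order of GRCr8, 5 of the 20 collagen chains lie next to another collagen gene, *Col3a1* beside *Col5a2*, *Col4a1* beside *Col4a2*, *Col4a4* beside *Col4a3*, *Col6a2* beside *Col6a1* and *Col9a1* beside *Col19a1*. None of these neighbours has a named probe set, so neighbouring chains could not be compared. Of 6 Schwann cell markers, 4 had a probe set and 2 were tested, and none passed the test in any comparison.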
